A study of Mus musculus with 2 samples.

Results

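The genes described here were 34 cell-cycle genes, 15 read in S phase and 19 read around mitosis, out of 27998 genes in the matrices. They were chosen by symbol, and all 34 were found in both libraries, with no symbol present more than once. The S-phase genes were Mcm2 to Mcm7, Cdc6, Cdc45, Gins2, Pcna, Rrm1, Rrm2, Tyms, Dut and Tk1. The mitosis genes were Top2a, Mki67, Birc5, Ube2c, Ccna2, Ccnb1, Ccnb2, Cdk1, Cdc20, Cenpa, Cenpe, Cenpf, Aurka, Aurkb, Plk1, Bub1, Tpx2, Nusap1 and Kif11. In the GRCm38 annotation the 34 genes lay on 15 chromosomes.

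A dividing cell copies its DNA in S phase and separates the copies in mitosis. The Mcm proteins form the helicase that opens DNA for copying, Pcna is the clamp that holds DNA polymerase on it, and Rrm1, Rrm2, Tyms, Dut and Tk1 supply or guard the DNA building blocks. Cyclins A and B with the kinase Cdk1 drive entry into mitosis, centromere and spindle proteins move the chromosomes, and Cdc20 and Ube2c mark proteins for destruction so that mitosis can end. Effector T cells and immature myeloid cells can divide, whereas mature neutrophils do not, so these genes are commonly used to find dividing immune cells in tumours.

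The cells were viable CD45+ (immune) cells sorted out of tumours grown from MC38, a colon carcinoma line of the mouse, and read with droplet 3′ RNA sequencing that counts unique molecules (UMIs). Tumour cells were placed in the skin of C57BL/6J mice at 4 sites and grown for 7 days, then the tumours received injections, and they were taken on day 10. There was 1 control library, whose injected agent is not described further in the labels, and 1 library from tumours given anti-PD-1 antibody by injection, 200 µg to each mouse daily. The labels do not give the number of mice behind a library, and no genotype other than the strain is given for either. With 1 library in each group no test across samples was possible. Every interval below is a 95% interval that covers counting error only, not differences between animals. UMIs of one cell are not independent, so the intervals of levels and UMI ratios are too narrow.

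Barcodes with at least 1000 UMIs and at most 10% mitochondrial UMIs gave 1174 control cells and 3321 anti-PD-1 cells, with medians of 3287 and 2763 UMIs. The libraries shared 4 cell barcodes. Marker genes placed 977 control and 2850 anti-PD-1 cells in a class, and these are called gated cells. Classes were T cells (Cd3 genes, divided by Cd8, Cd4 and Foxp3), NK cells with or without the granzymes Gzmc to Gzmg, macrophages, monocytes and dendritic cells. The gates were coarse for some myeloid cells. Cells gated on Ace or Treml4 held 631 CPM (UMIs scaled to 1000000 in a class and library) of these 2 genes in the control library but 313 CPM under anti-PD-1, where they also held 4129 CPM of S100a8 and S100a9 against 9.71 CPM. Ly6c2 monocytes held 137 and 37617 CPM of S100a8 and S100a9, neutrophil-type genes, and 23587 and 5240 CPM of the MHC class II genes H2-Aa and H2-Ab1 with their chaperone gene Cd74 (together called MHC class II genes). Both classes are therefore called by their gate genes, and differences between the libraries in them are between cells that also differed in these markers.

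The first comparison asked how many cells carried the cell-cycle genes with and without anti-PD-1, counting a cell as a carrier when the 34 genes summed to at least 3 UMIs. Carriers were 156 of 977 gated control cells, or 15.97% (13.7 to 18.4), and 634 of 2850 gated anti-PD-1 cells, or 22.2% (20.7 to 23.8). The ratio of these shares was 1.39 (1.19 to 1.63). After each cell was thinned to 1000 UMIs, which removes differences in depth, the shares were 3.48% and 7.72%, and their ratio was 2.22 (1.56 to 3.16). The share of carriers was therefore higher in the anti-PD-1 library at equal depth as well as at full depth.

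Most molecules lay in few cells. In the control library 25 gated cells, or 2.56%, had at least 20 UMIs of the 34 genes and held 51.8% of all such UMIs. In the anti-PD-1 library 160 cells, or 5.61%, held 67.4%. Cells with no member UMI made up 41.1% and 38.2%. Cells rich in these genes were also deeper, with a median of 8840 UMIs against 2838.5 in control cells with none, and 8716.5 against 2187 in anti-PD-1 cells. Markers of tumour epithelium stayed low in the rich cells, at 4.11 CPM in the control and 1.30 CPM under anti-PD-1, with 6 of 7 genes at 0 in both. The leukocyte gene Ptprc stood at 416 and 375 CPM there. Myeloid progenitor genes (Kit, Cd34, Elane, Mpo, Prtn3 and Ctsg) summed to 80.5 CPM in the rich anti-PD-1 cells and 16.7 CPM in cells with no member UMI, with no gene of the 6 at 0 in the rich cells. In the control the order was reversed, at 4.11 CPM in the rich cells, where 5 of the 6 genes were at 0, and 21.2 CPM in cells with none.

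CD8 T cells, the cytotoxic T cells, held a larger part of the cell-cycle molecules in the anti-PD-1 library. They were 4.94% of filtered control cells with 5.58% of member UMIs, and 30.0% of anti-PD-1 cells with 44.3% of member UMIs. Of the 176 filtered anti-PD-1 cells with at least 20 member UMIs, 81 were CD8 T cells, against 2 of 31 in the control library. The makeup of the sort thus differed between libraries. Over 11 classes, carriers were 15.1% in the control library and 23.3% under anti-PD-1, each with its own makeup. Reweighting to the control makeup of these classes lowered the anti-PD-1 share to 21.9%, which left a ratio of 1.45. The ratio over all gated cells given above also covers cells outside these classes, so it is not set against this value.

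**Figure D1:**
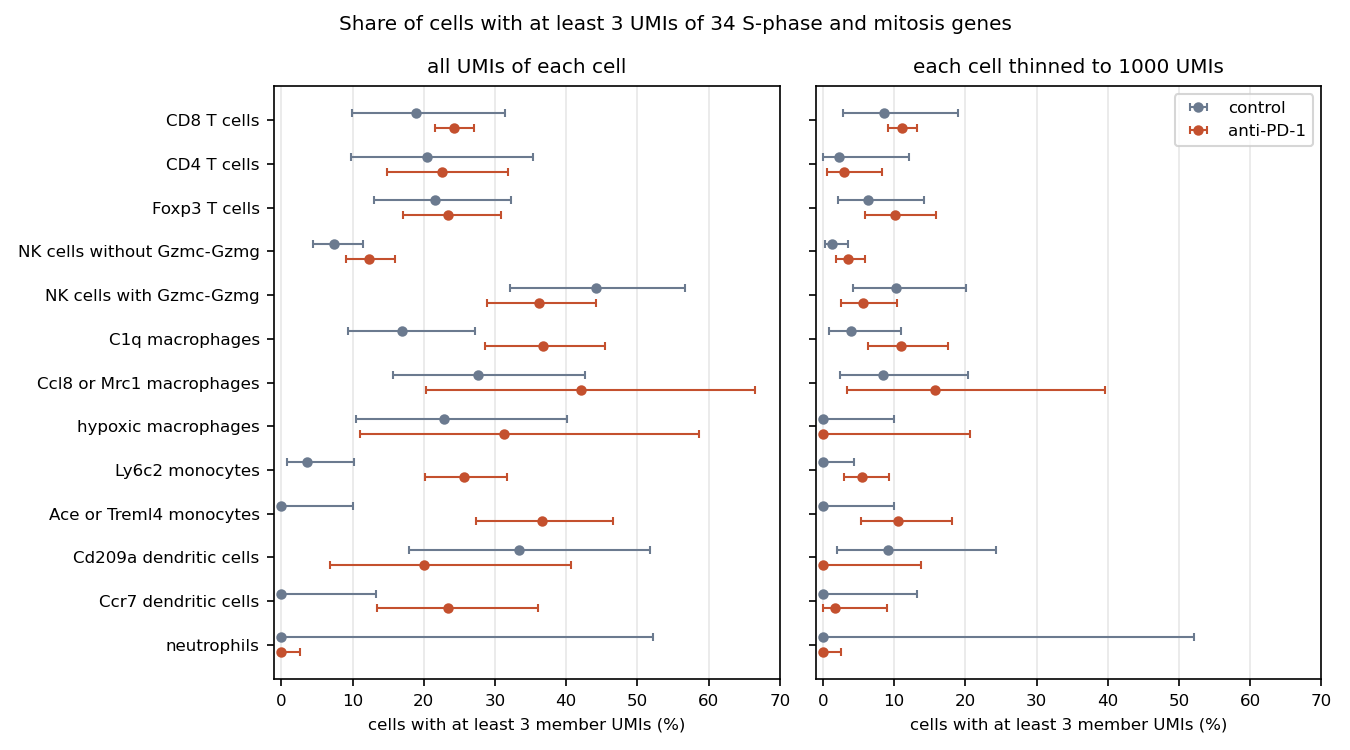
Share of cells with at least 3 summed UMIs of the 34 genes, in percent on the horizontal axis, for each class, at full depth (left) and with each cell thinned to 1000 UMIs (right). Points are the 2 libraries and bars are exact binomial 95% intervals. Ly6c2 monocytes stood at 3.61% and 25.6%, and no neutrophil reached 3 UMIs.

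Among T cells, carriers were 56 of 303 control cells (18.5%) and 346 of 1553 anti-PD-1 cells (22.3%). Their ratio was 1.21 (0.94 to 1.55). Thinned, the shares were 4.62% and 9.92% with a ratio of 2.15 (1.26 to 3.66). T cells with at least 20 member UMIs were 1.65% and 6.44%, a ratio of 3.90 (1.60 to 9.5). At full depth the ratio was thus larger for cells with many cell-cycle molecules than for carriers, but its interval overlaps that of the thinned carriers. CD8 T cells were 58 of the 303 control and 995 of the 1553 anti-PD-1 T cells. Pooled T cells of the libraries thus differed in makeup, and the part of this in the ratios was not tested.

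In CD8 T cells 11 of 58 control cells, or 18.97% (9.87 to 31.4), and 241 of 995 anti-PD-1 cells, or 24.2% (21.6 to 27.0), were carriers. Their ratio of 1.28 had an interval of 0.74 to 2.20, which holds 1. Thinned shares were 8.62% and 11.1%. The level of the 34 genes summed over the class was 940 CPM (808 to 1087) in the control and 1982 CPM (1936 to 2030) under anti-PD-1. In the control library 2 cells held 45.9% of the class's member UMIs, while 81 anti-PD-1 cells held 77.7%. Cells with at least 20 member UMIs were 3.45% (0.42 to 11.9) and 8.14% (6.52 to 10.0) of the class, with 2.36 as their ratio (0.60 to 9.36). Both differences in shares were thus within counting error. CD4 T cells without Foxp3 were carriers in 9 of 44 (20.5%) and 23 of 102 (22.5%) cells, and Foxp3 (regulatory) T cells in 17 of 79 (21.5%) and 37 of 158 (23.4%). The thinned shares in Foxp3 T cells were 6.33% and 10.1%.

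The CD8 class was read further by granzymes. Anti-PD-1 CD8 T cells with Gzmk were carriers in 154 of 652 cells (23.6%), those with Gzmb and no Gzmk in 74 of 268 (27.6%), and those with neither in 13 of 75 (17.3%). Thinned, the shares were 11.96%, 11.6% and 1.33%. The control library held 14, 22 and 22 such cells, with 4, 4 and 3 carriers, too few to compare.

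NK cells were read apart by their granzymes. NK cells without Gzmc to Gzmg were carriers in 18 of 242 control cells (7.44%) and 46 of 375 anti-PD-1 cells (12.3%), with 1.65 (0.98 to 2.78) as their ratio. NK cells with these granzymes were carriers in 30 of 68 (44.1%) and 58 of 160 (36.2%), a ratio of 0.82 (0.59 to 1.15). Those cells were deeper, with medians of 5081.5 and 4417 UMIs against 2664 and 2066, and their thinned shares were 10.3% and 5.62% against 1.24% and 3.47%. The anti-PD-1 pair of thinned shares overlapped within counting error (2.60 to 10.4 against 1.86 to 5.86). The summed level was higher with the granzymes in the control, at 1188 CPM (1083 to 1299) against 620 CPM (563 to 680), and lower with them under anti-PD-1, at 777.5 CPM (717 to 842) against 1044 CPM (978 to 1112). Control NK cells without these granzymes also held 1291 CPM of MHC class II genes against 120 CPM in the anti-PD-1 library, and the part of this in the result was not tested.

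Macrophages marked by C1q genes were carriers in 13 of 77 control cells, or 16.9% (9.31 to 27.1), and in 50 of 136 anti-PD-1 cells, or 36.8% (28.7 to 45.5). The ratio was 2.18 (1.27 to 3.75), and thinned shares were 3.90% and 11.0%. MHC class II genes stood at 35166 and 12787 CPM in these cells. Macrophages with Ccl8 or Mrc1 were carriers in 13 of 47 (27.7%) and 8 of 19 (42.1%) cells, and hypoxic macrophages in 8 of 35 (22.9%) and 5 of 16 (31.2%). No hypoxic macrophage was a carrier after thinning in either library, which allows shares of up to 8.57% and 18.8%.

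Ly6c2 monocytes were carriers in 3 of 83 control cells, or 3.61% (0.75 to 10.2), and in 60 of 234 anti-PD-1 cells, or 25.6% (20.2 to 31.7), with a ratio of 7.09 (2.29 to 22.0). This ratio rests on the 3 control cells, since its log2 value of 2.83 (1.19 to 4.46) was 1.13 (0.36 to 1.89) at a minimum of 2 UMIs. Their medians of 4151 and 4398 UMIs were close. Thinned, 0 of 83 control cells, so up to 3.61% is possible, and 5.56% of anti-PD-1 cells were carriers. Monocytes with Ace or Treml4 were carriers in 0 of 35 control cells, which allows up to 8.57%, and in 38 of 104 anti-PD-1 cells, or 36.5% (27.3 to 46.6). Their depths differed, at medians of 2742 and 6045.5 UMIs, and the thinned shares were 0% and 10.6%.

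Cd209a dendritic cells were carriers in 11 of 33 control cells and 5 of 25 anti-PD-1 cells (33.3% and 20%), with 0.60 as their ratio (0.24 to 1.51, which holds 1), thinned shares of 9.09% and 0%, and 4 control cells held 83.5% of the class's member UMIs. Dendritic cells with Ccr7 and related migration genes were carriers in 0 of 26 control cells, which allows up to 11.5%, and in 14 of 60 anti-PD-1 cells (23.3%). None of those 14 reached 20 member UMIs, and the thinned share was 1.67%.

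Neutrophils gave the background, since mature neutrophils do not divide. None of 142 anti-PD-1 neutrophils was a carrier, which allows up to 2.11%, at a median of 1749.5 UMIs, and none of 5 control neutrophils was. Their member level was 82.8 CPM (52.5 to 124) in the anti-PD-1 library. Free RNA, read from barcodes with 10 to 50 UMIs, held 963 and 1579 CPM of the members (31 and 516 UMIs), where cells held 687 and 1279.6 CPM. The control value rests on 31 UMIs, and no order is read from it. Free RNA thus held these genes in both libraries, and its part in the shares of other classes was not tested.

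The second comparison asked which of the 34 genes were higher. Levels are CPM of the UMIs pooled within a class, and ratios are log2 of the anti-PD-1 level over the control level. All 34 genes had at least 20 UMIs over the gated cells of both libraries, all 34 were higher in the anti-PD-1 library, and 18 were at least 2-fold higher, where 4.40% of all 10710 genes with that many UMIs were. No member was at least 2-fold lower, where 3.95% of genes were. The median log2 ratio was 1.03 over the 34 genes, 0.88 over the S-phase genes, 1.17 over the mitosis genes and 0.02 over all genes. Only 5 of the 15 S-phase genes passed 2-fold, against 13 of the 19 mitosis genes.

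Among genes of the replication helicase, Cdc6, which loads the Mcm proteins, stood at 1.51 CPM (0.56 to 3.29) in the control library and 5.85 CPM (4.48 to 7.52) under anti-PD-1. Its log2 ratio of 1.95 (0.75 to 3.45) was the highest of the 34 but rested on 6 control UMIs. Cdc45, a helicase cofactor, gave 1.502 (0.49 to 2.69) and Mcm2 1.52 (0.97 to 2.11). The other Mcm genes and Gins2, part of the GINS complex, lay between 0.59 for Mcm6 and 0.97 for Gins2. Helicase genes were thus higher by unequal amounts.

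Rrm2, the regulated subunit of ribonucleotide reductase, which makes deoxynucleotides, was at 18.4 CPM (14.4 to 23.1) in the control and 61.5 CPM (56.8 to 66.5) under anti-PD-1, giving a log2 ratio of 1.74 (1.39 to 2.11). Its partner subunit Rrm1 was at 14.6 and 21.6 CPM, a ratio of 0.56 (0.14 to 1.004). Dut, which clears dUTP, was at 60.3 and 123 CPM, with a ratio of 1.02 (0.82 to 1.23). Tyms and Tk1, which make and salvage thymidylate, gave 0.84 and 0.93. Pcna was at 68.8 CPM (60.9 to 77.5) and 101 CPM (94.7 to 107), a log2 ratio of 0.55 (0.36 to 0.75). Over gated cells the ratios of the 2 subunits of ribonucleotide reductase therefore differed, with intervals that do not overlap but are too narrow. This was not so in every class. Rrm1 and Rrm2 gave 0.16 and 1.91 in all T cells, but both gave 0.40 in all NK cells.

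The mitotic cyclins and their kinase lay close together. Log2 ratios were 1.52 for Ccna2, 1.53 for Ccnb1, 1.48 for Ccnb2 and 1.44 for Cdk1. Birc5 (survivin), a subunit of the chromosomal passenger complex, was at 36.8 CPM (31.1 to 43.3) and 95.9 CPM (90.1 to 102), a ratio of 1.38 (1.13 to 1.64). Aurkb, the kinase of that complex, gave 1.44 (0.86 to 2.08). Plk1, a kinase that drives mitosis, gave 1.49 (0.67 to 2.41). Ube2c and Cdc20, which act with the anaphase-promoting complex, gave 1.29 and 1.39. Aurka, a kinase of spindle poles, gave 0.74, with an interval of −0.08 to 1.66 that holds 0.

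The centromere and spindle genes were more spread. Cenpa, the histone that marks centromeres, was at 99.1 CPM (89.5 to 109) and 145 CPM (137 to 152), a log2 ratio of 0.55 (0.38 to 0.71). Cenpe and Cenpf, kinetochore proteins, gave 1.14 and 0.88, and the checkpoint kinase Bub1 gave 1.14. The spindle genes Tpx2, Nusap1 and Kif11 lay between 0.91 and 1.17. Top2a, the topoisomerase that untangles DNA, gave 0.85 (0.60 to 1.11). Mki67, which encodes the proliferation marker Ki-67, was at 17.1 CPM (13.3 to 21.7) and 24.8 CPM (21.8 to 28.0), and its ratio of 0.53 (0.14 to 0.94) was the lowest of the 34. The most used marker of division thus showed the smallest ratio in gated cells. Its interval overlaps those of most of the other members, Top2a, Cenpa and Cenpf among them, so its rank as the lowest is not resolved.

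**Figure D2:**
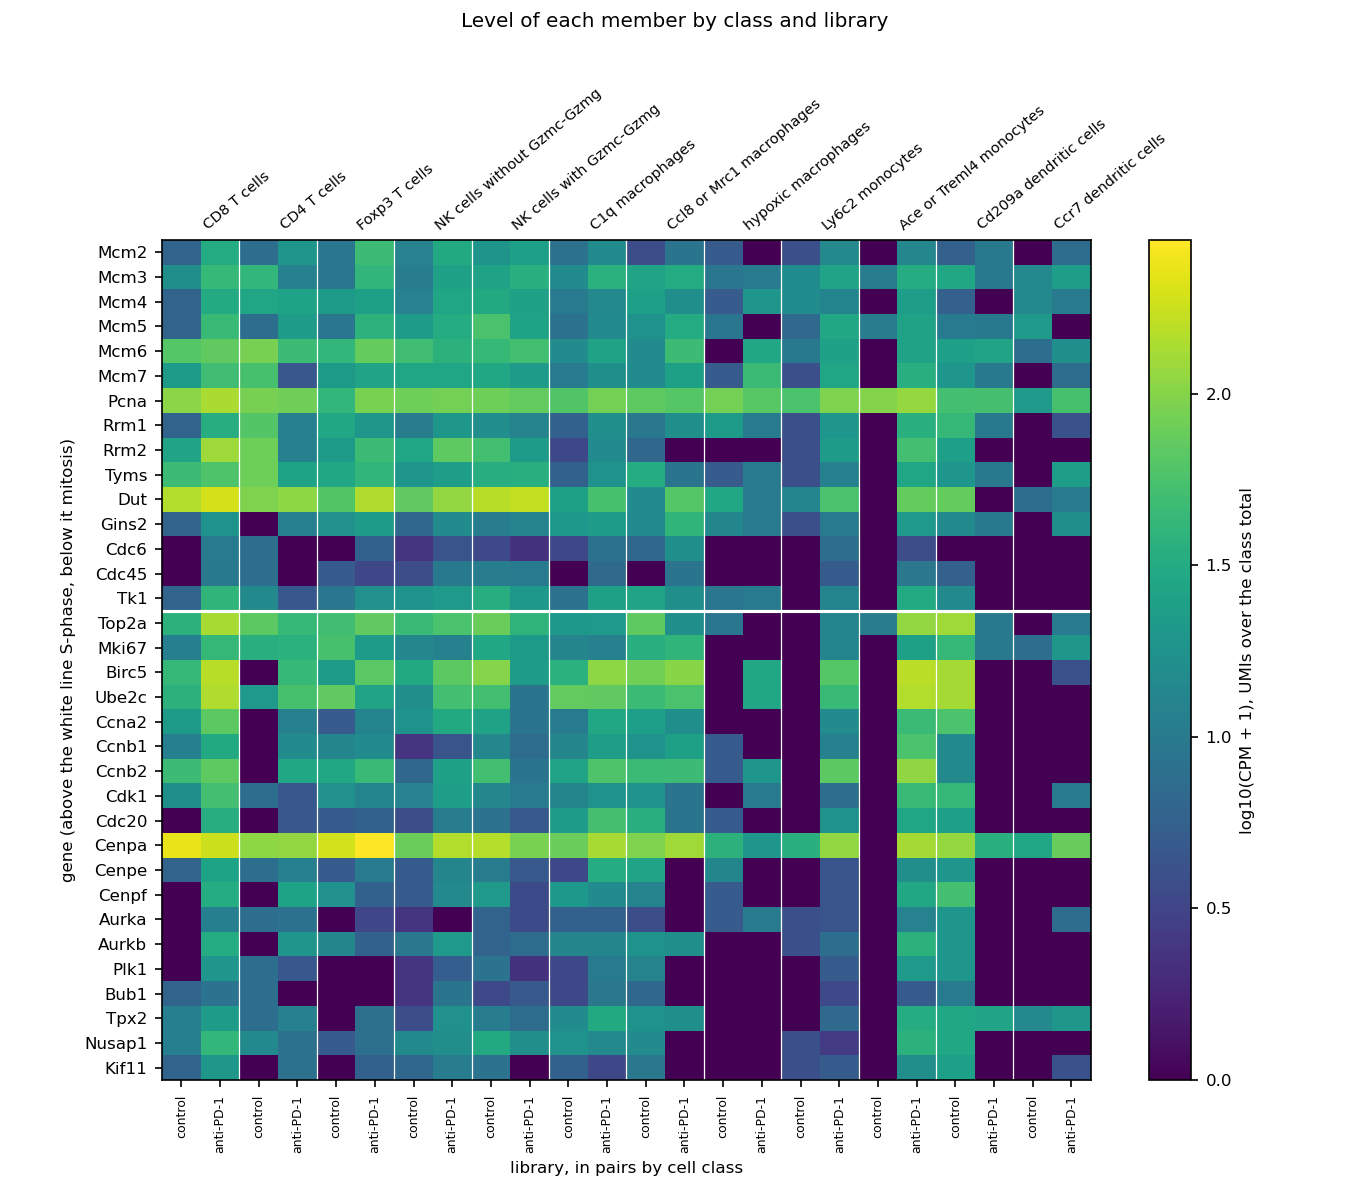
Level of each of the 34 genes (rows, S-phase above the white line and mitosis below) in each class and library (columns), as log10 of CPM + 1. In monocytes of the control library the mitosis rows are mostly at 0, as for Birc5 and Ccnb2, and in the anti-PD-1 library they are not.

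In all T cells the 34 genes were again higher without exception, and 25 were at least 2-fold higher, where 5.26% of 8750 genes were, and none was at least 2-fold lower, where 5.09% were. The anti-PD-1 T cells held 4907892 UMIs against 907226 in the control. Several genes, such as Cdc20 with 1 control and 132 anti-PD-1 UMIs, reached the UMI minimum through the anti-PD-1 library. The count of higher genes therefore does not support a direction by itself. The median log2 ratio was 1.11 for the S-phase and 2.19 for the mitosis genes. These medians take a gene under 3 UMIs in a library at 3. Ccna2 was at 5.51 CPM (5 UMIs) in the control and 55.4 CPM (272 UMIs) under anti-PD-1, giving a log2 ratio of 3.33 (2.09 to 4.96). Birc5 was at 14.3 and 127 CPM, a ratio of 3.15 (2.37 to 4.07). Dut, at 84.9 and 177 CPM, gave 1.06 (0.72 to 1.41) and Pcna, at 72.7 and 122 CPM, gave 0.74 (0.38 to 1.13). Cenpa, at 175 CPM (149 to 205) and 187 CPM (175 to 200), had the lowest ratio, 0.10 (−0.15 to 0.35). Pooled T cells of both libraries thus held Cenpa at like levels and differed in Ccna2, whose control UMIs lay in 3 cells. The pooled T cells also differed in their share of CD8 T cells, and the part of this in the ratios was not tested.

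In CD8 T cells all 34 genes had at least 20 UMIs over both libraries, but the control class was small. Of the 34, 29 were higher, 1 was lower, and the direction of 4 could not be told at this depth. At least 2-fold higher were 16, where 3.69% of 7618 genes were, and none lower, where 9.06% were. Genes passed the UMI minimum here mostly through the anti-PD-1 class, which held 3448142 UMIs against 192586 in the control class. The count of higher genes therefore does not support a direction by itself. The median log2 ratio over all genes was −0.18. Rrm2 had 5 control UMIs, all in 1 cell, and 418 anti-PD-1 UMIs in 81 cells, at 26.0 CPM (8.43 to 60.6) and 121 CPM (110 to 133), a ratio of 2.22 (0.99 to 3.85). Birc5 was at 41.5 CPM (17.9 to 81.9) and 153 CPM (140 to 166), a ratio of 1.88 (0.89 to 3.10). Cenpa was the gene that was lower, at 234 CPM (170 to 313) and 180 CPM (166 to 195), a ratio of −0.38 (−0.81 to 0.09) whose interval holds 0. Dut and Pcna, at 0.41 (−0.14 to 1.01) and 0.38 (−0.27 to 1.10), also had intervals that hold 0. Cdc20, Cenpf, Aurkb, Plk1, Aurka, Cdc6 and Cdc45 had 0 control UMIs over 58 cells, which allows up to 15.6 CPM for each. With cells under 10000 UMIs only, 7 genes were at least 2-fold higher.

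In Foxp3 T cells 12 of the 34 genes had enough UMIs. All 6 S-phase genes among them were higher, while the 6 mitosis genes split into 4 higher and 2 lower. At least 2-fold higher were 5, where 4.76% of 3719 genes were, and 2 were at least 2-fold lower, where 2.85% were. Mcm2 had 2 UMIs in the control and 20 under anti-PD-1, at 8.14 and 47.0 CPM, with a ratio interval of 0.49 to 5.67. Ube2c was at 69.2 CPM (40.3 to 111) and 25.9 CPM (12.9 to 46.3), a log2 ratio of −1.42 (−2.66 to −0.24). Mki67 was at 52.9 and 21.1 CPM, a ratio of −1.32 (−2.73 to 0.02). Dut, at 61.0 and 143 CPM, and Pcna, at 40.7 and 89.3 CPM, gave 1.23 (0.40 to 2.15) and 1.13 (0.10 to 2.30). Cenpa gave 0.55 (0.05 to 1.07) and Top2a, at 48.8 and 70.5 CPM, gave 0.53 (−0.48 to 1.63). Foxp3 T cells thus held S-phase genes at a higher level under anti-PD-1 and Ube2c at a lower one. Leaving out the 1 cell richest in member UMIs in each library left no member at least 2-fold lower.

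CD4 T cells gave only 5 genes with enough UMIs, 2 higher and 3 lower. None of the 5 reached 2-fold, where 6.27% of 2646 genes were at least 2-fold higher and 3.06% lower. Cenpa was at 108 and 111 CPM, a ratio of 0.04, and Dut at 94.2 and 107 CPM, a ratio of 0.19. Mcm6, at −0.91, Top2a, at −0.65, and Pcna, at −0.09, were lower. All 5 intervals hold 0. In NK cells without Gzmc to Gzmg, 20 of 21 such genes were higher and 8 at least 2-fold higher, where 3.72% of 5750 genes were (2.37% were lower). Ccnb2 was at 5.59 and 24.1 CPM (4 and 22 UMIs), a ratio of 2.105 (0.55 to 4.10). Cenpa was at 76.9 and 144 CPM, a ratio of 0.91 (0.44 to 1.39), and Dut at 69.9 and 112 CPM, a ratio of 0.67 (0.17 to 1.19). Mcm6 was the exception, at 49.0 and 36.1 CPM, with a ratio of −0.44 (−1.17 to 0.29). Pcna at 0.10 and Top2a at 0.32 had intervals that hold 0. With cells under 10000 UMIs only, 1 gene was at least 2-fold higher and 2 were lower.

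In NK cells with Gzmc to Gzmg, of 18 genes with enough UMIs, 13 were lower and 5 higher, and 6 were at least 2-fold lower, where 1.72% of 4604 genes were (5.34% were higher). This balance turned to 2 at least 2-fold higher and 1 lower in cells under 10000 UMIs. Stricter gates left 1 higher and 2 lower, and thinning left none lower. All 7 of the mitosis genes among them were lower. Birc5 was at 99.8 CPM (71.3 to 136) in the control and 21.7 CPM (12.7 to 34.8) under anti-PD-1, giving a log2 ratio of −2.20 (−3.11 to −1.35). Ccnb2 and Ube2c each had 20 control and 6 anti-PD-1 UMIs, at 49.9 and 7.67 CPM, a ratio of −2.70 (−4.31 to −1.33). Top2a was at 77.3 and 38.4 CPM, a ratio of −1.01 (−1.79 to −0.24), and Cenpa at 147 and 89.5 CPM, a ratio of −0.72 (−1.24 to −0.19). The S-phase genes did not follow as one, since Dut was at 152 and 166 CPM (0.13, −0.32 to 0.59), Pcna at 79.8 and 71.6 CPM (−0.16, −0.81 to 0.52), and Mcm3 at 24.95 and 34.5 CPM (0.47, −0.62 to 1.68). Mcm5 and Rrm2, at −1.10 and −1.29, were the S-phase genes at least 2-fold lower. Birc5 UMIs lay in 8 control and 5 anti-PD-1 cells, so each of these values rests on few cells. Over all NK cells the classes went against each other, with 15 of 27 genes higher and 12 lower, 1 at least 2-fold higher, where 3.27% of 7100 genes were, and none lower, where 1.62% were.

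In C1q macrophages 15 of 17 genes were higher and 9 at least 2-fold higher, where 7.23% of 5280 genes were, and none lower, where 3.22% were. Over all macrophages 22 of 26 genes were higher and 4 lower, with 5 at least 2-fold higher, where 3.95% of 6679 genes were, and none lower, where 3.46% were. Birc5 was at 35.6 CPM (19.9 to 58.7), held by 3 cells, and 107 CPM (86.0 to 132), held by 23 cells, a ratio of 1.59 (0.79 to 2.48). Cenpe, a kinetochore motor, had 1 control UMI and 27 anti-PD-1 UMIs, a ratio with an interval of 1.16 to 9.11. Cenpf was at 18.99 and 14.3 CPM, a ratio of −0.41 (−1.82 to 1.08). Dut gave 1.17 (0.16 to 2.33) and Cenpa 0.80 (0.22 to 1.41), while Pcna gave 0.53 (−0.15 to 1.25).

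In Ly6c2 monocytes 13 genes had enough UMIs, all 13 were higher and 10 were at least 2-fold higher, where 6.48% of 5513 genes were and 5.08% were at least 2-fold lower. Of the 19 mitosis genes, 14 had no UMI in the 83 control cells, which allows up to 8.75 CPM for each. Ccnb2 had 81 UMIs in 32 anti-PD-1 cells, at 67.2 CPM (53.4 to 83.6), at least 7.68-fold higher. Birc5 had 75 UMIs at 62.3 CPM, at least 7.11-fold higher. Dut was at 11.7 and 54.8 CPM (4 and 66 UMIs), a log2 ratio of 2.23 (0.81 to 4.15). Pcna was at 55.4 and 93.0 CPM, a ratio of 0.75 (0.04 to 1.53). Cenpa was at 35.0 and 110 CPM, a ratio of 1.66 (0.80 to 2.65). Ly6c2 monocytes of the control library therefore still held Pcna and Cenpa, while most mitosis genes were not detected. A gene passed the UMI minimum here mostly through the anti-PD-1 library, so the count of higher genes does not support a direction by itself.

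In monocytes with Ace or Treml4, Birc5 had 0 control and 112 anti-PD-1 UMIs, at least 5.34-fold higher, Ube2c 0 and 104, at least 4.96-fold higher, and Dut 0 and 52, at least 2.48-fold higher. Tk1 had 0 and 22. Pcna was at 97.1 CPM (46.6 to 179) and 114 CPM (90.6 to 141), a log2 ratio of 0.23 (−0.72 to 1.34). Of 19 genes with enough UMIs, 18 were higher and 6 at least 2-fold higher, where 7.06% of 4067 genes were (7.11% were lower). Apart from Pcna with 10 control UMIs and Mcm3 and Top2a with 1 each, these genes had 0 control UMIs and reached the minimum through the anti-PD-1 library, so the count gives no support to a direction. In Cd209a dendritic cells 4 genes, all of mitosis, had enough UMIs, and they reached the minimum through the control library, with 25 to 28 UMIs there and 0 to 4 under anti-PD-1. They were at least 2-fold lower, where 6.90% of 2086 genes were (6.66% were higher), a count that gives no support to a direction. Birc5 had 28 control UMIs in 5 cells and 0 anti-PD-1 UMIs over 25 cells, and Cenpa was at 115 and 34.9 CPM, a ratio of −1.72 (−3.71 to −0.19). Without the 1 richest cell of each library, 1 gene remained at least 2-fold lower. Both genes with enough UMIs in Ccr7 dendritic cells, Cenpa and Pcna, were higher, at 1.51 (−0.03 to 3.50) and 1.43 (−0.36 to 3.84), where 12.2% of 2521 genes were at least 2-fold higher and 3.69% lower.

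The third comparison set S-phase against mitosis genes. In gated cells S-phase UMIs over mitosis UMIs were 0.91 (0.84 to 0.99) in the control and 0.83 (0.80 to 0.86) under anti-PD-1. The difference of the log2 ratios, anti-PD-1 minus control, was −0.14 (−0.26 to −0.02). In all T cells the ratios were 1.11 (0.95 to 1.29) and 0.82 (0.78 to 0.85), a difference of −0.44 (−0.66 to −0.21). Without the 1 richest cell of each library it was −0.20, with an interval of −0.44 to 0.04 that holds 0. In CD8 T cells they were 0.93 (0.68 to 1.25) and 0.80 (0.76 to 0.84), with a difference of −0.22 (−0.64 to 0.21) that holds 0. Without Dut and Cenpa the differences were −1.13 (−1.42 to −0.84) in all T cells and −0.69 (−1.25 to −0.14) in CD8 T cells. The lean of T cells to mitosis genes in the anti-PD-1 library thus had a size that moved with 1 cell and with 2 of the 34 genes.

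NK cells with Gzmc to Gzmg leaned to S phase instead. Their S-phase genes summed to 581 CPM (509 to 661) and 523 CPM (474 to 576), while their mitosis genes summed to 606 CPM (532 to 688) and 254 CPM (220 to 292). S-phase over mitosis UMIs were 0.96 (0.80 to 1.15) and 2.06 (1.73 to 2.45), a log2 difference of 1.10 (0.74 to 1.46). The same difference was 1.09 without the 1 richest cell of each library and 1.38 with cells under 10000 UMIs only. Among carriers, 11 of 30 control cells and 28 of 58 anti-PD-1 cells held at least 3 UMIs of S-phase genes and under 3 of mitosis genes. The higher ratio thus went with a lower level of mitosis genes, while the intervals of the S-phase levels overlap.

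Foxp3 T cells also leaned to S phase, at 0.65 (0.48 to 0.87) and 1.07 (0.90 to 1.27), a log2 difference of 0.72 (0.24 to 1.20). Without the 1 richest cell of each library this was 0.45, with an interval of −0.10 to 0.99 that holds 0. In CD4 T cells the ratios were 2.31 and 0.86, a difference of −1.42 (−2.07 to −0.78), which was −0.42 without the richest cells. In NK cells without the granzymes the ratios were 1.38 and 1.02, a difference of −0.44 (−0.76 to −0.11), which turned to 0.11 without the richest cells. C1q macrophages were below 1 in both libraries, at 0.50 (0.37 to 0.66) and 0.56 (0.49 to 0.65), and macrophages with Ccl8 or Mrc1 were at 0.47 and 0.82, a difference of 0.80 (0.15 to 1.44). The difference in C1q macrophages was 0.17 (−0.27 to 0.62), and −0.58 without the richest cells. In macrophages with Ccl8 or Mrc1 it was 2.06 without the richest cells and −0.04 with cells under 10000 UMIs only. In classes with few rich cells, 1 cell could thus set the balance.

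In Ly6c2 monocytes the S-phase genes were at 128 CPM (93.3 to 172) and 359 CPM (326 to 395), and the mitosis genes at 46.7 CPM (26.7 to 75.8) and 390 CPM (356 to 427). The log2 ratios were 1.49 (1.04 to 1.97) and 3.06 (2.35 to 3.88). Monocytes with Ace or Treml4 had 1 mitosis UMI in the control library and 751 under anti-PD-1, at 9.71 and 1044 CPM. S-phase over mitosis UMIs in the anti-PD-1 library were 0.92 (0.81 to 1.05) and 0.49 (0.43 to 0.55) in these classes. Monocytes of the anti-PD-1 library therefore held genes of both phases, and of their carriers 20 of 60 and 15 of 38 cells had at least 3 UMIs of each list.

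**Figure D3:**
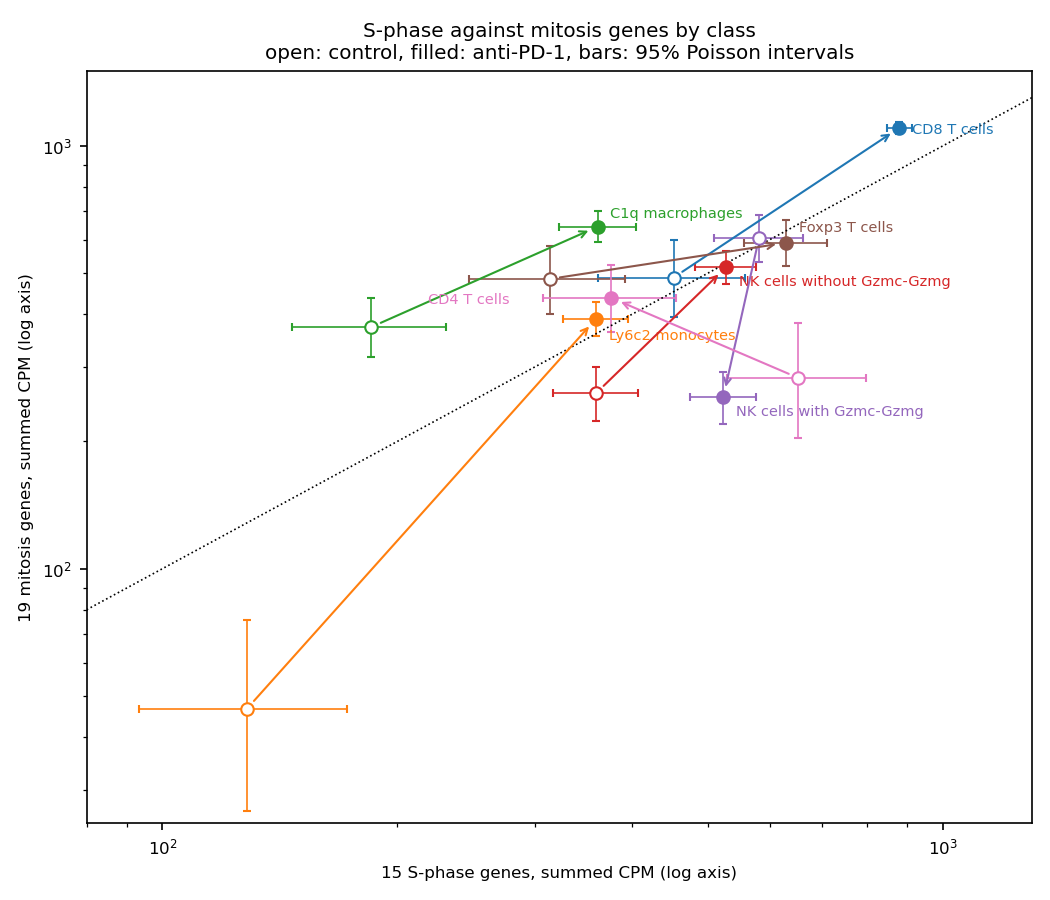
Summed CPM of the 15 S-phase genes (horizontal, log axis) against the 19 mitosis genes (vertical, log axis) for 7 classes, with open points for the control library, filled points for the anti-PD-1 library, arrows from one to the other and Poisson 95% intervals. Points above the dotted line hold more mitosis than S-phase UMIs. NK cells with Gzmc to Gzmg move from 606 to 254 CPM on the vertical axis.

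Within the anti-PD-1 CD8 T cells the balance differed by granzyme. S-phase over mitosis UMIs were 0.73 (0.69 to 0.77) in cells with Gzmk, 1.15 (1.02 to 1.30) in cells with Gzmb and no Gzmk, and 2.26 (1.56 to 3.33) in cells with neither. The 3 intervals do not overlap, but they are too narrow because UMIs within a cell are not independent. In cells with neither, 1 cell held 33 of the 137 member UMIs, and 65 cells with Gzmk held 83.5% of the member UMIs there. The balance of these subsets without their richest cells was not read. Of 154 carriers with Gzmk, 64 held at least 3 UMIs of each list, against 18 of 74 with Gzmb alone and 1 of 13 with neither.

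How the 34 genes sat together was read from the other 33 in the same cell. Many of their promoters shared short sequences known from cell-cycle control, which are shown for 5 genes as examples of the first 3 words given here. Promoters of 29 of the 34 genes were matched in RefSeq. The word CCAAT, bound by the factor NF-Y, stood on either strand within 250 bases upstream of the start in 23 of 29 members (79.3%) and in 33.8% of 32851 promoters. TTTGAA, the core of the element read by the DREAM complex, stood in 9 of 29 (2 of 13 S-phase and 7 of 16 mitosis genes) and in 15.99% of all promoters. TTTGGCGC, a form of the E2F site, stood in 2 of 29, both helicase genes, and in 0.417% of all. TTTCCCGC, another E2F form, stood in Cdc6 and Mcm7, which are not shown, and in 0.895% of all. The words searched do not overlap each other in these windows, and a match describes letters and does not show that a factor was bound. The lines give the 120 bases before the start, 5′ to 3′ on the gene's strand, in GRCm38.p6, with the words CCAAT and TTTGAA and the E2F word TTTGGCGC in capitals, as are ATTGG and, for the DREAM core, the word TTCAAA, which are the same words read from the other strand.
Mcm6, chr1:128359706-128359825, minus strand: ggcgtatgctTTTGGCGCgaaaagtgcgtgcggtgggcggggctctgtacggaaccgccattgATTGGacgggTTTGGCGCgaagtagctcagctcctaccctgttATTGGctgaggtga
Rrm1, chr7:102441575-102441694, plus strand: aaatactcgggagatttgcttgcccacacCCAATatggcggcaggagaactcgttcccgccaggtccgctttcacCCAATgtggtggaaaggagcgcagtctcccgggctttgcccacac
Ccnb2, chr9:70421555-70421674, minus strand: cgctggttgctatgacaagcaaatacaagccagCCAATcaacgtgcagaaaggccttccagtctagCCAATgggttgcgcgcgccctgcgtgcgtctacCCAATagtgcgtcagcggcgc
Cdc20, chr4:118437344-118437463, minus strand: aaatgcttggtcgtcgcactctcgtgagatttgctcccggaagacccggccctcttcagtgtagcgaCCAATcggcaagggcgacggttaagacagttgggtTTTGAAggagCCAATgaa
Top2a, chr11:99024190-99024309, minus strand: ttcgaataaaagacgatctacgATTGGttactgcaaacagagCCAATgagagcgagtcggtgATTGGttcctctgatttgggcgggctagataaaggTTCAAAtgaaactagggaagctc
Mcm6 held 2 copies of TTTGGCGC and 2 of ATTGG, Ccnb2 held 3 copies of CCAAT, and Cdc20 and Top2a held the DREAM core near the start beside CCAAT words.

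The genes were also read by phase in single cells. Anti-PD-1 gated cells were taken with at least 3 UMIs of mitosis genes and under 3 of S-phase genes, or the reverse, leaving out the gene being read. Of the S-phase genes with enough UMIs, 13 of 13 were lower in mitosis-only than in S-only cells, with a median log2 ratio of −1.86. Of the mitosis genes, 13 of 13 were higher, with a median of 3.90. The control library had enough UMIs for 5 S-phase genes, all lower, and 1 mitosis gene, which was higher. The cells were chosen by the rest of the same lists, so genes that vary together within a list go this way by the choice. These counts therefore give no separate support to a division by phase, and the share over all genes was not read.

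Mcm3 was the furthest to the S-phase side, at 81.8 CPM in S-only and 7.74 CPM in mitosis-only cells, a log2 ratio of −3.40 (−5.06 to −2.12). Birc5 was the furthest to the mitosis side, at 9.12 and 299 CPM, a ratio of 5.04 (4.13 to 6.12). Cenpf gave 4.91, Ccnb2 4.41 and Cdc20 4.15. In between lay Top2a, at 36.5 and 42.5 CPM with a ratio of 0.22 (−0.55 to 0.96), and Cdk1, at 1.26 (0.26 to 2.29). On the S-phase side Rrm2 at −0.62 (−1.84 to 0.49), Tyms at −0.63 (−1.64 to 0.31) and Tk1 at −0.54 (−1.76 to 0.58) had intervals that hold 0. Top2a, listed with mitosis, was thus read about equally in both kinds of cell.

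The genes also differed in how far they marked cells that held no other member. Of Cenpa UMIs in gated anti-PD-1 cells, 34.4% lay in cells with under 3 UMIs of the other 33 genes, and in the control library 54.7% did. The corresponding shares were 38.4% and 49.6% for Mcm6, 33.4% and 62.3% for Pcna, and 30.2% and 45.2% for Dut, all high in the set. The median was 19.8% for S-phase and 5.48% for mitosis genes in the anti-PD-1 library, and 33.3% and 9.76% in the control library. Low shares were those of Birc5, at 2.40% and 2.05%, Rrm2, at 2.81% and 11.0%, and Ccna2, at 1.04% and 1.96%. Mcm4, at 31.2% and 49.1%, was like Cenpa, Mcm6, Pcna and Dut. Cenpa, Mcm6, Pcna, Dut and Mcm4 were thus read in many cells that held little else of the set. Cenpa, Pcna and Mcm6 were also among the genes with the lowest log2 ratios between libraries in gated cells, while Mcm4, at 0.73, and Dut, at 1.02, were higher. These shares depend on depth and on the level of each gene, whose parts were not tested.

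**Figure D4:**
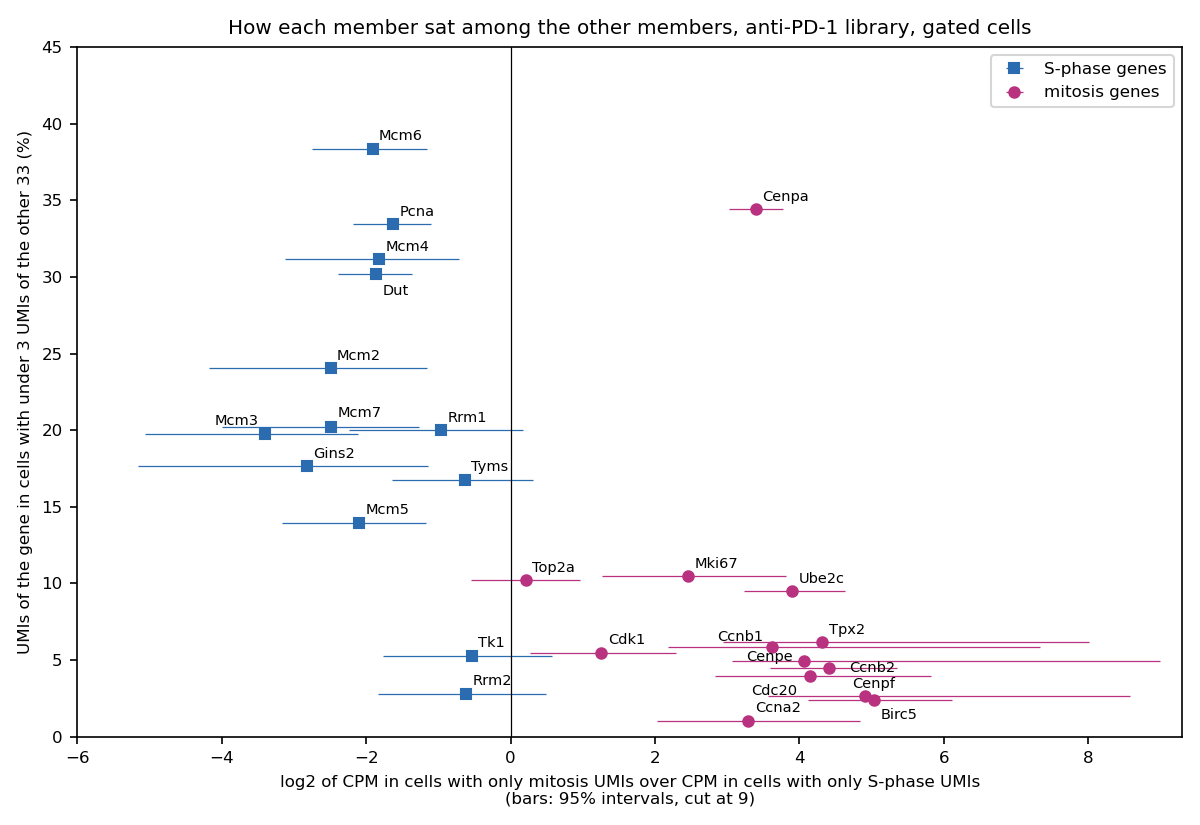
Each gene by its log2 ratio between mitosis-only and S-only cells of the anti-PD-1 library (horizontal, bars are 95% intervals, cut at 9) and by the percentage of its UMIs in cells with under 3 UMIs of the other 33 genes (vertical). S-phase genes lie left of 0 and mitosis genes right of it, with Top2a near 0 at 0.22. Cenpa, at 34.4%, stands apart from the other mitosis genes and near Mcm6, Pcna, Mcm4 and Dut on the vertical axis.

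Genes of the cycle outside the set were read from 5 further lists. In gated cells all 18 genes of replication and chromatin assembly were higher in the anti-PD-1 library (7 at least 2-fold, median log2 ratio 0.89), as were all 24 further mitosis and spindle genes (12 at least 2-fold, median 0.95). Prc1, which bundles the central spindle, was at 4.29 and 16.4 CPM, a ratio of 1.94 (1.22 to 2.75). Of 9 genes of the G1 phase, which precedes S phase (cyclins, kinases and the transcription factor Myc), 7 were higher and 2, Ccnd1 and Myc, lower, with a median of 0.06. The E-type cyclins Ccne1 and Ccne2 gave 2.02 (1.20 to 2.97) and 2.46 (1.03 to 4.39), while Cdk4 was at 76.7 and 84.7 CPM and Ccnd1 at 40.3 and 26.4 CPM. Of the 8 inhibitors of division with enough UMIs, 4 were higher and 4 lower. Among them Cdkn1a (p21) was at 312 and 209 CPM, a ratio of −0.58 (−0.68 to −0.47), and Btg2 at 831 and 571 CPM, a ratio of −0.54 (−0.60 to −0.48). Among the higher ones Cdkn2d was at 66.1 and 90.2 CPM, a ratio of 0.45 (0.25 to 0.65), Btg1 gave 0.13 (0.08 to 0.19), and Cdkn2a gave 2.15 (0.77 to 5.84) from 2 control and 35 anti-PD-1 UMIs. A list of 11 genes that control transcription in the cycle held E2f genes, Mybl2, Foxm1, Rb1, Rbl1 and Rbl2. Of these, 10 were higher and 1, E2f1, was lower, with a median of 0.54. The intervals of E2f1, E2f2, Foxm1, Rb1 and Rbl2 hold 0. Further genes of S phase and mitosis thus went with the set, and the G1 genes and inhibitors did not go one way.

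In NK cells with Gzmc to Gzmg, 12 of 12 further mitosis and spindle genes with enough UMIs were lower and 5 at least 2-fold lower, against the 1.72% of all genes. Stmn1 (stathmin), which takes microtubules apart, was at 382 and 130 CPM, a ratio of −1.55 (−1.93 to −1.18). Of 8 replication genes 7 were higher and 1 lower. The further mitosis and spindle genes thus went the same way as the members, but they were read in the same cells and give no separate support. Whether they keep this direction in thinned cells or in cells under 10000 UMIs was not tested.

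Carriers were also compared with cells of the same class and library that held no member UMI. In each class of the anti-PD-1 library read here, carriers were deeper than cells with under 3 member UMIs. The part of depth in the differences below was not tested. Anti-PD-1 CD8 T cells with under 3 member UMIs had a median of 2673.5 UMIs. In this class 241 carriers, at a median of 4602 UMIs, were set against 338 cells with no member UMI. All 24 further mitosis and spindle genes were at least 2-fold higher in carriers, and 15 of 17 replication genes, where 11.1% of 6472 genes outside the set were. Stmn1 was at 755 CPM in carriers and 5.86 CPM in the others. Cyclin E1 (Ccne1) was at 45.4 and 4.69 CPM, Cdk4 at 159 and 69.2 CPM, and the inhibitor Cdkn1a at 52.9 and 21.1 CPM. The cells thus differed in the wider cycle programme and not only in the 34 genes that chose them.

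T-cell genes differed between these cells in both directions, 5 of 21 at least 2-fold higher in carriers and 4 at least 2-fold lower, where 4.37% of genes were lower. Gzma, a granzyme, was at 3099.7 CPM in carriers and 851 CPM in cells with no member UMI, a log2 ratio of 1.86 (1.75 to 1.98). Ifng (interferon gamma) was at 1040.0 and 409 CPM, a ratio of 1.35 (1.18 to 1.52). Tnfrsf9 (4-1BB) and Il2ra (CD25), receptors that appear on activated T cells, gave 1.38 (1.04 to 1.74) and 2.03 (1.14 to 3.04). The chemokine Ccl5 was lower, at 5738 and 15004 CPM (−1.39, −1.43 to −1.35), as were Tcf7, a factor of memory-type T cells, at 11.2 and 43.4 CPM (−1.96, −2.93 to −1.06), and Ccr7, a lymph node homing receptor, at 17.1 and 59.8 CPM. Pdcd1, the gene for PD-1 itself, stood at 155 and 150 CPM, a ratio of 0.05 (−0.28 to 0.37). Carriers among CD8 T cells thus held more Gzma, Ifng and Il2ra, less Ccl5, Tcf7 and Ccr7, and Pdcd1 at a like level.

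Carriers among Foxp3 T cells (37 against 43 cells) held less Tnfrsf9, at 1159.6 and 2373 CPM, a ratio of −1.03 (−1.33 to −0.73). This was the opposite of its direction in CD8 T cells, and the difference between the classes was not tested. Ccl5 was at 639 and 2498 CPM there. Of 11 T-cell genes 4 were at least 2-fold lower, where 8.46% of 1703 genes were, and 6 of 7 mitosis and spindle genes higher, where 9.34% were. In anti-PD-1 NK cells with Gzmc to Gzmg (58 against 42 cells) Ccl5 was at 531 and 1558 CPM and the antiproliferative gene Btg1 at 571 and 1331 CPM. There 5 of 8 mitosis and spindle genes were at least 2-fold higher, where 8.28% of 2668 genes were (3.79% were lower). In NK cells without the granzymes 10 of 11 were, where 6.67% of 2893 genes were (5.81% were lower).

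C1q macrophages of the anti-PD-1 library with under 3 member UMIs had a median of 4769.5 UMIs. In this class 50 carriers, at a median of 8626.5 UMIs, were set against 34 cells with no member UMI. Ly6c2, a gene of monocytes, was at 256 CPM in carriers and 2359.98 CPM in the others, a ratio of −3.20 (−3.53 to −2.88). H2-Aa was at 1986 and 5951 CPM, and Spp1 (osteopontin) at 113 and 445 CPM. Of 10 myeloid genes with enough UMIs, 6 were at least 2-fold lower in carriers, where 8.23% of 3246 genes were, and 11 of 13 mitosis and spindle genes were at least 2-fold higher, where 10.1% were. Carriers of this class thus held less of a monocyte gene.

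Ly6c2 monocytes of the anti-PD-1 library with under 3 member UMIs had a median of 3629 UMIs. In this class 60 carriers, at a median of 8517 UMIs, were set against 106 cells with no member UMI. Ly6c2 itself was at 3448 and 3640.35 CPM, a ratio of −0.08 (−0.18 to 0.02). The macrophage-type genes Apoe, at 83.6 and 1006 CPM, and Arg1 (arginase 1), at 11.7 and 313 CPM, were lower in carriers, with ratios of −3.59 (−4.08 to −3.13) and −4.75 (−6.22 to −3.58). Elane and Prtn3, proteases made by myeloid progenitors, were higher, at 91.4 and 7.58 CPM (47 and 3 UMIs) and at 237 and 45.5 CPM. S100a8 was at 8182 and 52413.5 CPM. Of 9 myeloid genes 7 were at least 2-fold lower, where 10.2% of 4130 genes were, and 10 of 12 mitosis and spindle genes were at least 2-fold higher, where 14.9% were. Carriers in this class thus held Ly6c2 at a like level, more Elane and Prtn3, and less Apoe, Arg1 and S100a8. In carriers with Ace or Treml4 (38 against 30 cells) the gate gene Ace was at 66.6 and 241 CPM and Apoe at 88.8 and 1403 CPM. There 12 of 15 mitosis and spindle genes were at least 2-fold higher, where 11.4% of 2951 genes were (6.81% were lower).

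**Figure D5:**
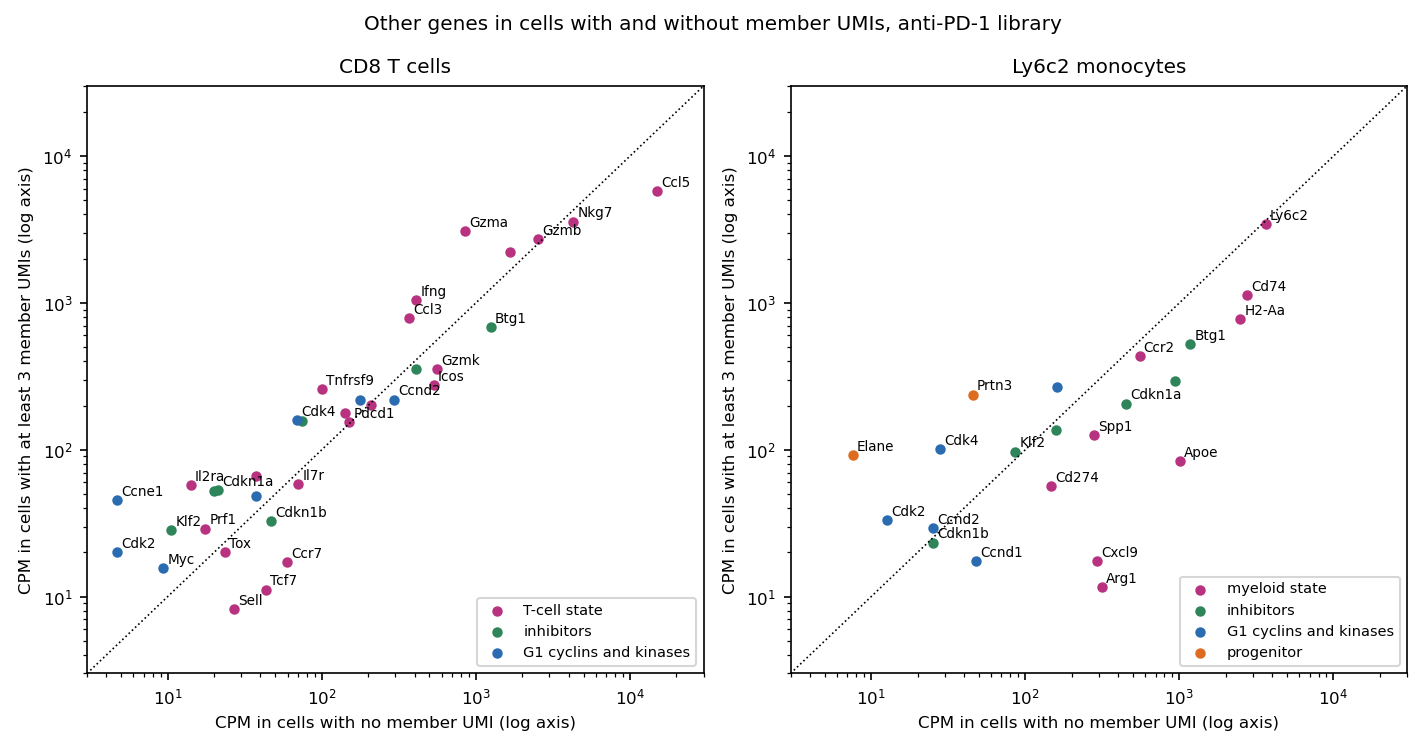
CPM of genes outside the set in cells with at least 3 member UMIs (vertical, log axis) against cells of the same class with none (horizontal, log axis), in the anti-PD-1 library, for CD8 T cells and Ly6c2 monocytes, with some points unnamed for space. Gzma, Ifng and Il2ra lie above the dotted line of equal CPM in CD8 T cells and Ccl5 and Tcf7 below it, and Elane and Prtn3 lie above it in monocytes and Apoe and Arg1 below.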

How the data were processed

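Viable CD45+ cells of 1 control and 1 anti-PD-1 library were read. The deposited values were unnormalised counts of UMIs, made with Cell Ranger 2.1 on mm10 per the submitters' processing notes. The matrices held 737280 barcodes each, with totals of 5203415 and 13717817 UMIs. Barcodes with at least 1000 UMIs and at most 10% mitochondrial UMIs were kept. Classes were gated on UMIs of marker genes; 3 control and 43 anti-PD-1 cells with lymphoid and myeloid markers were left out, and no other doublet caller was run. UMIs were summed per class and library to CPM. Ratios used genes with at least 20 UMIs over both libraries, a side under 3 UMIs was set to 3, and past 2-fold counted as called. Intervals were exact Poisson for levels, exact binomial (Clopper-Pearson) for shares, conditional binomial for UMI ratios and log-normal for ratios of shares and differences of S-phase over mitosis ratios. The ratio step was tested on simulated data. Values were given for the highest and lowest ratio of each class and for the S-phase and mitosis genes with most UMIs; others named were chosen after their values were seen. The members and lists were chosen with earlier results of these data known. Python 3.11.15, numpy 2.4.6, scipy 1.17.1, pandas 2.3.3 and matplotlib 3.10.9 were used.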

Additional observations from a re-analysis of the deposited data

Results flagged for a closer look

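Classes of cells differed in how the members compared between the libraries, and none of these differences between classes was tested, since each class had 1 library per group. The log2 difference of S-phase over mitosis UMIs lay above 0 in NK cells with Gzmc to Gzmg (1.10), macrophages with Ccl8 or Mrc1 (0.80) and Foxp3 T cells (0.72). It lay below 0 in CD4 T cells (−1.42) and in NK cells without those granzymes (−0.44). Apart from NK cells with Gzmc to Gzmg, each of these differences shrank or turned in 1 of the checks given above. The checks were leaving out the richest cells and using cells under 10000 UMIs only. The summed mitosis genes were higher with anti-PD-1 in CD8 T cells (log2 ratio 1.18), NK cells without the granzymes (0.99), C1q macrophages (0.79) and CD4 T cells (0.63), and lower in NK cells with them (−1.25).

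Members were also read in cells outside the classes. Cells that no gate took held 1106.64 CPM in the anti-PD-1 library and 878 CPM in the control, with carrier shares of 19.2% and 19.1%. Cells with both lymphoid and myeloid markers held 2039 CPM (43 cells) and 626 CPM (3 cells).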

How the results depend on the processing

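Settings are named with the values they moved. Of the shares of carriers (log2 ratio anti-PD-1 over control), those at a minimum of 2 UMIs were 0.22 in gated cells and 1.13 in Ly6c2 monocytes, and at 5 UMIs 0.745 in gated cells. At 20 UMIs they were 1.13 in gated cells, 1.96 in T cells, 1.24 in CD8 T cells, 2.09 in C1q macrophages and −1.46 in NK cells with Gzmc to Gzmg. Thinned to 1000 UMIs they were 1.15 in gated cells, 1.10 in T cells, and 1.48 and −0.87 in NK cells without and with the granzymes. The log2 difference of S-phase over mitosis UMIs in NK cells without the granzymes was −0.93 when thinned, 0.114 with cells under 10000 UMIs and 0.111 without the richest cells. With cells under 10000 UMIs it was −0.375 in gated cells, −2.12 in C1q macrophages and −0.0444 in macrophages with Ccl8 or Mrc1, where stricter gates gave 1.525. Without the richest cells it was −0.20 in T cells, −0.42 in CD4 T cells, −0.58 in C1q macrophages and 2.06 in macrophages with Ccl8 or Mrc1. Without Dut and Cenpa it was −0.34 in gated, −1.13 in T and −0.695 in CD8 T cells. The cause was not tested.

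Counts of members at least 2-fold higher became, when thinned, which leaves fewer genes over the minimum, 6 in gated, 8 in T, 0 in CD8 T (1 lower) and 0 in Foxp3 T cells (0 lower), 1 and 0 in NK cells without the granzymes and C1q macrophages, 1 in Ly6c2 monocytes, and 0 lower in NK cells with the granzymes. Stricter gates gave 0 lower in Foxp3 T cells, 5 higher in NK cells without and 1 higher and 2 lower with the granzymes, and 17 in Ly6c2 monocytes. A minimum of 5 UMIs gave 14 in NK cells without the granzymes and in C1q macrophages. A minimum of 50 gave 1 higher and 0 lower in Foxp3 T cells, 3 higher in NK cells without and 2 lower with the granzymes, 4 in C1q macrophages and 5 in Ly6c2 monocytes. Mean CPM per cell gave 1 in Foxp3 T cells. Cells under 10000 UMIs gave 7 in CD8 T and 3 in Foxp3 T cells, 1 higher and 2 lower in NK cells without and 2 higher and 1 lower with the granzymes, 5 in C1q macrophages, 6 in Ly6c2 and 3 in Ace or Treml4 monocytes. Without the richest cells 0 were lower in Foxp3 T cells and 1 in Cd209a dendritic cells.

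No value moved with other UMI minimums per barcode, a mitochondrial share of at most 5%, or the median gene scaled to 0. In all, 12 of 85 shares, 14 of 67 balances and 35 of 210 counts moved or turned, and 26 of 409 values of named genes moved, with none turned. Leaving out the richest cells, the minimum of 20 member UMIs and the control class makeup were chosen after seeing the data. No paired analysis was possible because each group had 1 library.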
